A study of Mus musculus with 14 samples.

Results

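Interleukin-1 (IL-1) family genes and the inflammasome sensor gene Nlrp3 were examined in tumor-bearing mouse livers and in cultured mouse pancreatic stellate cells (PSCs). The 10 genes were taken by name: the cytokines Il1a, Il1b, Il18 and Il33, the receptor chains Il1r1, Il1rap and Il1rl1, the receptor antagonist Il1rn, the soluble binding protein Il18bp, and Nlrp3. All 10 were found among the 54532 genes of the liver table, and 8 among the 16481 genes of the PSC table. Il1b and Nlrp3 were not analysed in PSCs.

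Livers came from mice aged 8 to 12 weeks that had received 100000 KPCY cells, a mouse pancreatic ductal adenocarcinoma line that carries a yellow fluorescent reporter, in the tail of the pancreas 20 days before. WT livers (n = 2) were from Piezo1 fl/fl mice, which the study called WT. TRPV4-KO livers (n = 3) were from Trpv4-/- mice, which lack the TRPV4 calcium channel in every host cell, whereas the injected tumor cells were not deleted for it. GSK219 livers (n = 3) were from mice labelled WT and given the TRPV4 antagonist GSK2193874 by gavage at 10 mg/kg every 24 hours, and whether WT mice received the carrier was not given in the sources used here. Every liver was from a tumor-bearing mouse, so the data hold no tumor-free level. PSCs, the fibroblast-like cells that make much of the stroma of pancreatic cancer, were cultured from 3 preparations. Each preparation gave both a DMSO library and a library treated with 25 µM Yoda1, an agonist of the mechanically gated channel PIEZO1, for a time that the methods give as 24 hours and a supplementary legend as 72 hours.

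IL-1α and IL-1β bind IL1R1, which then recruits the accessory chain IL1RAP to start signaling toward NF-kB. IL-1RA, the product of Il1rn, occupies the same receptor without recruiting the accessory chain, and IL-18BP holds IL-18 away from its own receptor. IL-1β and IL-18 are made as precursors that caspase-1 cuts after a sensor such as NLRP3 assembles an inflammasome, whereas IL-33, held in the nucleus of structural cells, acts through IL1RL1 (ST2) paired with IL1RAP. In the liver, Kupffer cells and recruited myeloid cells are known sources of IL-1β. RNA levels say nothing of this cleavage or of secretion.

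Il1a (mouse chromosome 2, 129299610 to 129309972, minus strand) and Il1b (chromosome 2, 129364570 to 129371139, minus strand) are neighbors, and each has up to 7 exons in GENCODE M21 on GRCm38. Nlrp3 lies on chromosome 11 (59541568 to 59566956, plus strand). The 250 bases before their first annotated start are shown because Il1a and Nlrp3 had the liver profiles closest to that of Il1b among the members, as described below. Sequences are from RefSeq on GRCm38.p6 and run 5′ to 3′ in the direction of transcription. Capitals mark matches, on either strand, to the TATA box TATAAA, to the AP-1 motif TGANTCA and to the NF-kB consensus.
Il1b, chr2:129371140-129371389, minus strand: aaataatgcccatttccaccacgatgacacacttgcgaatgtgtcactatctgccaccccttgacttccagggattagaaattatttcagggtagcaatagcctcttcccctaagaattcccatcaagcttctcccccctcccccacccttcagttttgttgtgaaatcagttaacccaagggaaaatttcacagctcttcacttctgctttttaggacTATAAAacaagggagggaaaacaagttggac
Il1a, chr2:129309973-129310222, minus strand: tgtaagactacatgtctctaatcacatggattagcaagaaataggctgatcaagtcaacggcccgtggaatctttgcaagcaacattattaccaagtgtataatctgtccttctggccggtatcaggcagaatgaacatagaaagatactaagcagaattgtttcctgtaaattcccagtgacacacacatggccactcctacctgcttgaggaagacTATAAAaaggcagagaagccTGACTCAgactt
Nlrp3, chr11:59541319-59541568, plus strand: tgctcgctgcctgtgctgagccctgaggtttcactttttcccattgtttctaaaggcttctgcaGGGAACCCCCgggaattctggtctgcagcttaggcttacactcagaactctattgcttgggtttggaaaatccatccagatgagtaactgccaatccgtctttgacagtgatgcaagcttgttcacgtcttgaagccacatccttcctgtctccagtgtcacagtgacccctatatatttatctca
Il1b and Il1a each held a TATA box at nearly the same place, at -31 to -26 and -32 to -27 from the start, and Il1a also held an AP-1 match at -12 to -6. In this window Nlrp3 held no TATA box and had an NF-kB match at -186 to -177. Of 32851 promoters of the same length in the table, 12.4% held the TATA box, 6.75% the AP-1 motif and 7.25% the NF-kB consensus. Among the other members, the first promoters of Il33 and Il18 held a TATA box match farther out, at -203 to -198 and -175 to -170, and that of Il1rn an AP-1 match at -141 to -135. The promoter of a second annotated Il33 start held a TATA box at -29 to -24, and that of a second Il1r1 start an NF-kB match at -232 to -223. No motif overlapped another in the sequences shown, and these matches describe letters, not bound sites.

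Library depth was 15567031 to 17395299 counted reads per liver and 27312894 to 39070539 reads per PSC library. Trpv4 reads numbered 43 and 53 in WT, 15, 5 and 23 in TRPV4-KO, and 20, 30 and 36 in GSK219 livers. Each liver group held 1 liver with Xist reads (WT replicate 1, TRPV4-KO replicate 3, GSK219 replicate 3) and otherwise livers with Y-linked reads. TRPV4-KO replicate 3 had the highest level of its group for Il1a, Il1b, Il1rl1, Il1rn, Il33, Il18, Il18bp and Nlrp3, and results that rest on it are given with and without it. Hepatocyte markers were high in every liver (Alb 31636 to 74029 CPM, reads scaled to library size), and in PSCs the fibroblast genes Col1a1, Acta2 and Pdgfrb were high while the stellate markers Lrat and Gfap were not analysed there.

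Within WT livers, Il1r1 had the highest level per length (29.0 CPM per kb of gene length), followed by Il18bp (12.3), Il18 (9.37), Il1b (8.92) and Il1rap (7.89). Il1a (3.77), Il33 (3.09), Il1rn (1.62) and Nlrp3 (1.46) were lower, and Il1rl1 was near 0 at 0.0652 CPM per kb. The ranges of Il18, Il1b and Il1rap overlapped in that order, as did those of Il1a, Il33, Il1rn and Nlrp3. In TRPV4-KO livers Il1b came after Il1a on this scale, at 1.67 against 2.04 CPM per kb with overlapping ranges, and in GSK219 livers before it, at 3.32 against 2.34, again with overlap.

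In the comparisons of WT livers with TRPV4-KO and GSK219 livers, most members had higher RNA levels in WT, with the largest difference from TRPV4-KO at Il1b (log2 2.41) and nearly equal ones from GSK219 at Il1b (1.43) and Il33 (1.42), but no member passed the call used here. To be called, a gene needed a Benjamini-Hochberg adjusted p below 0.05 in edgeR's quasi-likelihood test and a difference of more than 1 on the log2 scale. Of the 10 members, 9 had enough reads to be tested, and Il1rl1 did not. In WT against TRPV4-KO, edgeR called 0 of 9 members, where 0.265% of all 15118 tested genes were called. At an unadjusted p under 0.05 there were 5 of 9 (Il1a, Il1b, Il1r1, Il33 and Nlrp3), all higher in WT, against 17.1% of all genes, and DESeq2 called 1 of them, Il1b, beside 3.28% of all genes. In WT against GSK219, edgeR called 0 of 9 members, where 0% of all genes were called, DESeq2 also called 0 (0.491% of all genes), and 3 of 9 members (Il1b, Il1r1 and Il33) had an unadjusted p under 0.05, against 8.22% of all genes. Leaving out TRPV4-KO replicate 3 gave 4 calls against TRPV4-KO (Il1b, Il18bp, Il33 and Nlrp3), where 4.83% of all genes were then called. The median log2 fold change over the 9 tested members was 1.07 against TRPV4-KO, beside -0.01 over all genes, and 0.90 against GSK219, beside -0.0015. The same 2 WT livers serve in both comparisons.

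**Figure D1:**
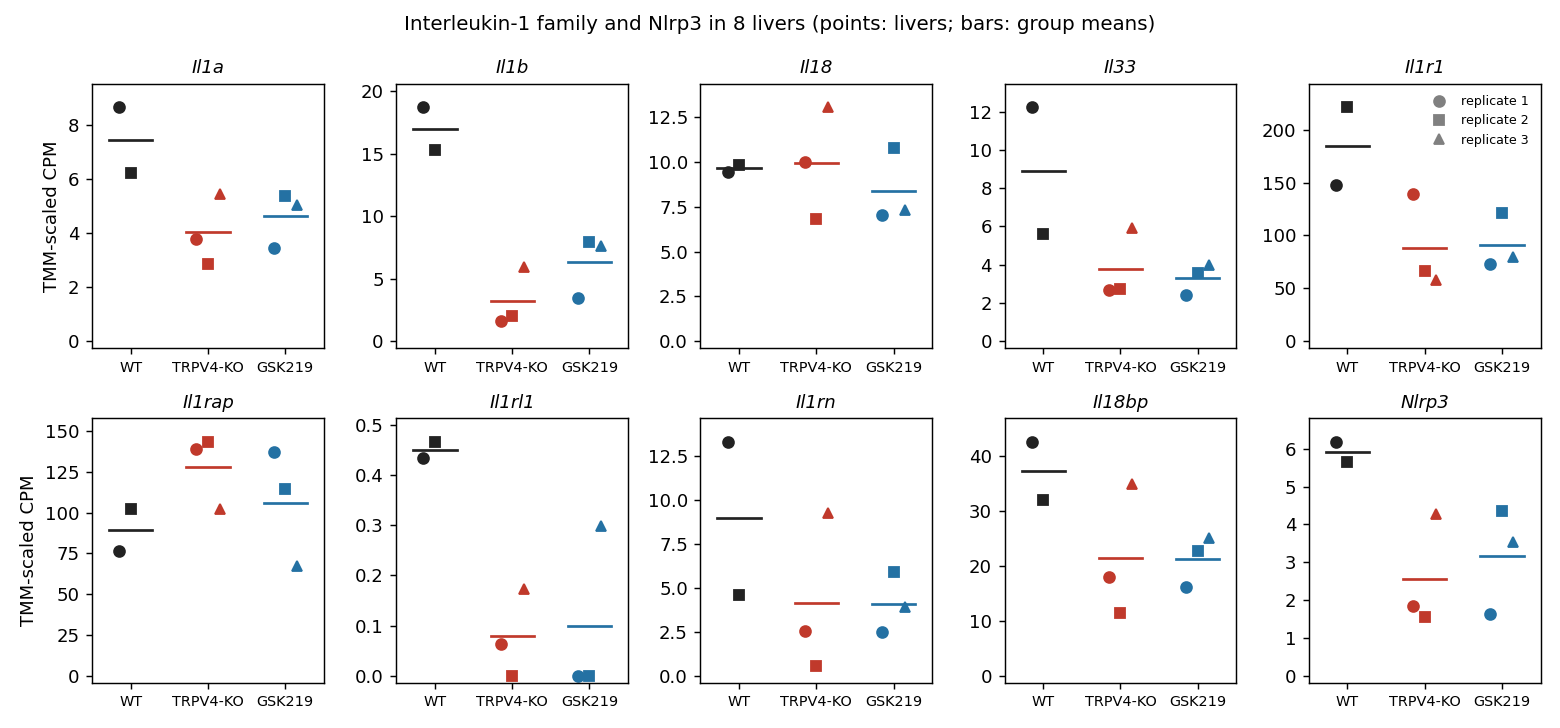
Level of each member in each liver, as TMM-scaled CPM on linear axes that differ between panels. Points are livers, marked by replicate number, and bars are group means of 2 WT, 3 TRPV4-KO and 3 GSK219 livers. Il1b in WT livers (15.3 and 18.7 CPM) lies above all 6 other livers (1.58 to 7.91 CPM), while Il18 overlaps in all groups.

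Among the cytokines, Il1b, which encodes the form of IL-1 made chiefly by activated myeloid cells, read 18.7 and 15.3 CPM in the WT livers (303 and 262 reads). It read 1.58, 2.01 and 5.96 CPM in TRPV4-KO livers and 3.46, 7.91 and 7.59 CPM in GSK219 livers. Both WT livers were above every other liver, and the highest TRPV4-KO liver was replicate 3. The fitted difference from TRPV4-KO was 5.30-fold (log2 2.41 ± 0.56 SE), with an adjusted p of 0.119 in edgeR's quasi-likelihood test. The call differed between fits: the adjusted p was 0.00103 with DESeq2 and 0.0314 with a term for Xist or Y-linked reads in edgeR (a fit that called 2.15% of all genes), over a range of 0.00103 to 0.191 across the alternatives with all livers. Without TRPV4-KO replicate 3 the difference was 9.46-fold (log2 3.24) with an adjusted p of 0.0147, and without any other liver of these groups the adjusted p was 0.246 to 0.558. Against GSK219 the difference was 2.69-fold (log2 1.43 ± 0.54 SE, adjusted p = 0.570 in edgeR). Among livers with Xist reads the log2 difference between WT and TRPV4-KO was 1.64, and among those with Y-linked reads 3.02, with WT higher in each. The antisense gene Il1bos overlaps Il1b, and with 0 to 7 reads per liver it was far below it.

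Il1a, the IL-1 form that is active without cleavage, differed less. It read 8.66 and 6.24 CPM in WT, 3.79, 2.85 and 5.44 CPM in TRPV4-KO, and 3.46, 5.38 and 5.02 CPM in GSK219 livers, so the WT livers again lay above all others. WT minus TRPV4-KO was 0.88 ± 0.33 (SE) on the log2 scale and WT minus GSK219 0.69 ± 0.32, with edgeR adjusted p of 0.228 and 0.636. Without TRPV4-KO replicate 3 the difference from TRPV4-KO was 1.16, with an edgeR adjusted p of 0.0556. Over the livers left out in turn it was 0.64 to 1.16. Gm14023, on the opposite strand, overlaps Il1a and had 6 to 19 reads per liver, beside 44 to 140 for Il1a, so reads of the overlap cannot be assigned between them where strand was not used in counting.

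Il33, an alarmin of stellate, endothelial and epithelial cells, read 12.2 and 5.59 CPM in WT livers. It read 2.66, 2.72 and 5.91 CPM in TRPV4-KO livers and 2.39, 3.56 and 4.00 CPM in GSK219 livers. WT replicate 2 lay below TRPV4-KO replicate 3 but above every GSK219 liver. Of these 2, WT replicate 2 had Y-linked reads and TRPV4-KO replicate 3 had Xist reads. Among livers with Xist reads the log2 difference between WT and TRPV4-KO was 1.04, and among those with Y-linked reads 1.03. For Il33, WT minus TRPV4-KO was log2 1.24 ± 0.45 (SE), with an edgeR adjusted p of 0.225, and WT minus GSK219 1.42 ± 0.46, with 0.539. Without TRPV4-KO replicate 3 it was 1.73, with an adjusted p of 0.0443, within a range of 0.0443 to 0.881 over the livers left out in turn. Without WT replicate 1, the higher of the WT livers, it was 0.58 against TRPV4-KO and 0.75 against GSK219.

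Il18, the other substrate of caspase-1, had nearly the same level in all groups. It read 9.46 and 9.85 CPM in WT, 9.99, 6.80 and 13.1 CPM in TRPV4-KO, and 7.05, 10.8 and 7.35 CPM in GSK219 livers. The groups overlapped, and the log2 difference from TRPV4-KO was -0.05 ± 0.30 (SE), which turned to 0.20 without TRPV4-KO replicate 3. Il18 overlaps Bco2, which had 182 to 398 reads per liver on the opposite strand, so its level is uncertain by the reads of that overlap.

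**Figure D2:**
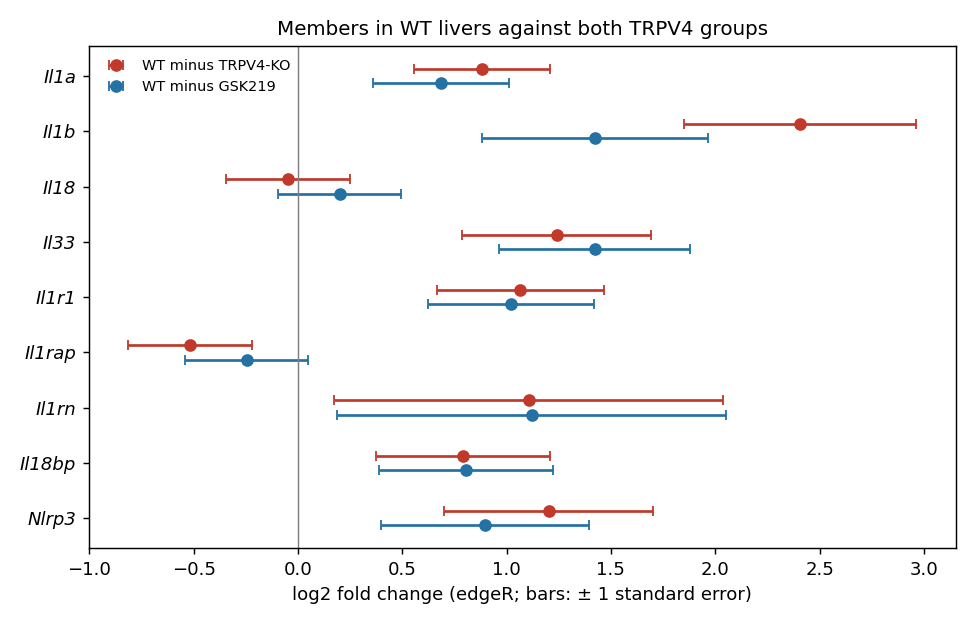
Log2 fold change of the 9 tested members, WT minus TRPV4-KO in red and WT minus GSK219 in blue, from edgeR with bars of 1 standard error either way. Il1b has the largest value (2.41) against TRPV4-KO, Il18 lies near 0, and Il1rap is the only member below 0 in both.

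Among the receptor chains, neither Il1r1 nor Il1rap passed the test. Il1r1, the signaling receptor, read 147 and 222 CPM in WT, 139, 66.8 and 58.2 CPM in TRPV4-KO, and 72.5, 121 and 79.1 CPM in GSK219 livers. The WT livers were above all others, though WT replicate 1 exceeded TRPV4-KO replicate 1 only narrowly. Il1r1 differed by log2 1.07 ± 0.40 (SE) from TRPV4-KO and 1.02 ± 0.40 from GSK219, with edgeR adjusted p of 0.236 and 0.571. For Il1r1, TRPV4-KO replicate 3 was the lowest liver of its group, not the highest.

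Il1rap, the accessory chain shared by the IL-1, IL-33 and IL-36 receptors, read 76.8 and 102 CPM in WT livers. It read 139, 143 and 102 CPM in TRPV4-KO livers and 137, 114 and 67.1 CPM in GSK219 livers. WT replicate 2 and TRPV4-KO replicate 3 were nearly equal, and the WT and GSK219 groups overlapped. Il1rap differed by log2 -0.52 ± 0.30 (SE) from TRPV4-KO and -0.25 ± 0.29 from GSK219, with edgeR adjusted p of 0.418 and 0.910. The antisense gene Gm20319 overlaps Il1rap and had 213 to 374 reads per liver, beside 1122 to 2214 for Il1rap, so the Il1rap level, and with it the ratio given next, is uncertain by the reads of that overlap.

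Measured within each library, which removes the scaling between libraries, the ratio of Il1r1 to Il1rap reads per gene length was 3.43 and 3.86 in WT livers. It was 1.79, 0.831 and 1.01 in TRPV4-KO livers and 0.944, 1.89 and 2.11 in GSK219 livers. Both WT livers were above all 6 others, and Il1r1 exceeded Il1rap per length in all livers but TRPV4-KO replicate 2 and GSK219 replicate 1. This ratio was not tested. It sets a member that read higher in WT over one that read lower, so it is no support beyond those 2 differences. Which livers exceed 1 depends on the gene lengths used. By reads alone the ratio was 0.568 in TRPV4-KO replicate 3.

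**Figure D3:**
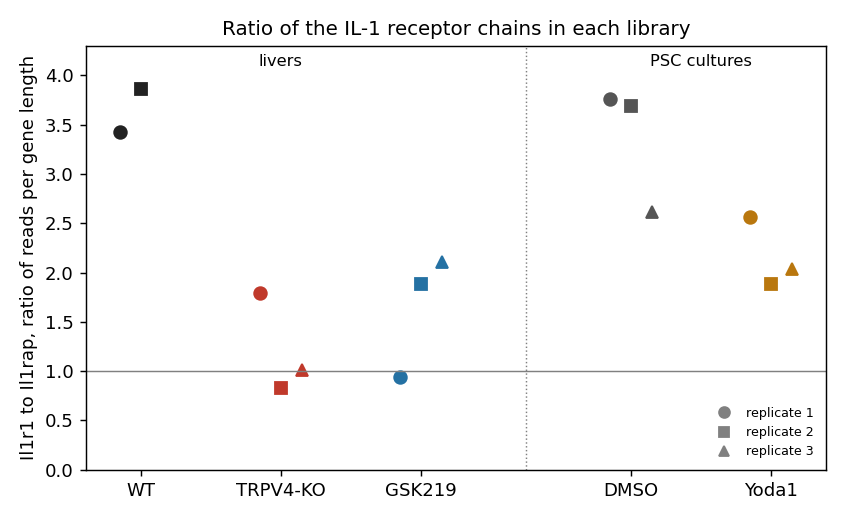
Ratio of Il1r1 to Il1rap, as reads per gene length, in each of 8 livers and 6 PSC libraries, marked by replicate number, with a line at a ratio of 1. The WT livers (3.43 and 3.86) lie above the TRPV4-KO and GSK219 livers (0.831 to 2.11), and each Yoda1 library lies below the DMSO library of its own preparation.

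Il1rl1, the IL-33 receptor, had 7 and 8 reads in WT, 1, 0 and 3 in TRPV4-KO, and 0, 0 and 5 in GSK219 livers. These counts did not pass the filter on low counts, and no fold is given. Il1rl1 lies with Il1r1 in the receptor cluster of chromosome 1 between Il1r2 (from 40074079) and Il18rap (to 40551705). Il1r2 is the decoy receptor that binds IL-1 without signaling and is known from neutrophils. It had 15 and 16 reads in WT, 2, 0 and 7 in TRPV4-KO, and 0, 4 and 3 in GSK219 livers. It passed the filter on low counts through the WT livers alone, which set its direction in advance, so no fold is given. The IL-36 receptor gene Il1rl2 had 49 and 43 reads in WT and 14 to 36 in the other livers. Its log2 difference was 0.97 ± 0.41 SE from TRPV4-KO and 1.18 ± 0.41 SE from GSK219 (edgeR adjusted p 0.272 and 0.539). Il18r1, next to Il1rl1, overlapped between groups at 4 to 28 reads.

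Il1rn, the gene of the receptor antagonist, read 13.3 and 4.60 CPM in WT, 2.53, 0.583 and 9.26 CPM in TRPV4-KO, and 2.52, 5.92 and 3.89 CPM in GSK219 livers. All 3 groups overlapped, and the higher WT liver and the highest TRPV4-KO liver were those with Xist reads, whereas the GSK219 liver with Xist reads (3.89 CPM) lay below replicate 2 (5.92 CPM). Il1rn differed by log2 1.11 ± 0.93 (SE) from TRPV4-KO and 1.12 ± 0.93 from GSK219, with edgeR adjusted p of 0.598 and 0.842. It was 2.52 without TRPV4-KO replicate 3 and 0.17 without WT replicate 1, both against TRPV4-KO, and against GSK219 it was 0.16 without WT replicate 1 and 1.69 without WT replicate 2, so single livers set its size. Il1b reads per Il1rn read were 1.41 and 3.32 in WT, 0.625, 3.44 and 0.644 in TRPV4-KO, and 1.38, 1.34 and 1.95 in GSK219 livers, with overlap of all groups.

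Il18bp, the secreted inhibitor of IL-18, read 42.5 and 32.0 CPM in WT livers. It read 18.0, 11.5 and 34.9 CPM in TRPV4-KO livers and 16.05, 22.7 and 25.1 CPM in GSK219 livers. The WT livers were above all GSK219 livers, and TRPV4-KO replicate 3 lay between the WT livers. Among livers with Xist reads the log2 difference between WT and TRPV4-KO was 0.28, and among those with Y-linked reads 1.11. Il18bp differed by log2 0.79 ± 0.42 (SE) from TRPV4-KO and 0.81 ± 0.42 from GSK219, with edgeR adjusted p of 0.382 and 0.680, and without TRPV4-KO replicate 3 it was 1.34 with 0.0377, within 0.0377 to 0.885 over the livers left out in turn. Numa1 overlaps Il18bp on the opposite strand with 1523 to 2057 reads per liver, more than Il18bp itself, so the Il18bp level is uncertain.

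Nlrp3, the inflammasome sensor, read 6.19 and 5.65 CPM in WT, 1.83, 1.55 and 4.28 CPM in TRPV4-KO, and 1.64, 4.35 and 3.53 CPM in GSK219 livers. Both WT livers were above all others. The log2 difference was 1.20 ± 0.50 (SE) from TRPV4-KO and 0.90 ± 0.50 from GSK219, with edgeR adjusted p of 0.272 and 0.706. Without TRPV4-KO replicate 3 it was 1.80 with an adjusted p of 0.0460, within 0.0460 to 0.772 over the livers left out in turn.

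By rank alone, both WT livers were above all TRPV4-KO livers for 4 of the 9 tested members (Il1a, Il1b, Il1r1 and Nlrp3), which held for 17.7% of all tested genes. They were below all TRPV4-KO livers for Il1rap, which held for 15.5% of genes. Against GSK219 both WT livers were above for 6 of 9 members (Il1a, Il1b, Il1r1, Il33, Il18bp and Nlrp3), which held for 15.6% of genes.

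Summed myeloid marker levels were higher in both WT livers than in all others, as were Il1b, Il1a, Il1r1 and Nlrp3, but not Il33, Il1rn, Il18bp, Il18 or Il1rap. Summed neutrophil markers (12 of 12 genes in the table, among them S100a8, S100a9 and Cxcr2) were 81.3 to 97.2 CPM in WT, 6.80 to 18.1 CPM in TRPV4-KO and 6.04 to 16.5 CPM in GSK219 livers. Ly6g was near 0 in every group, at 0.124 to 0.175 CPM in WT and 0 to 0.0598 CPM in the other livers. Summed Kupffer cell markers (8 of 8 genes) were 1399 to 1556, 370 to 840 and 396 to 954 CPM, and the 7 markers of monocytes and recruited macrophages 254 to 365, 93.4 to 204 and 103 to 239 CPM. Of those 7, both WT livers were above all TRPV4-KO livers for 5 and above all GSK219 livers for 6. Summed markers of stellate cells and fibroblasts, which also express Il1r1 and Il33, were 464 to 667 CPM in WT and 173 to 385 CPM in the other livers, and those of liver endothelium 458 to 503 and 298 to 472 CPM. Summed hepatocyte markers were lower in WT, at 57105 to 66759 CPM, than in TRPV4-KO (79450 to 98270 CPM) and GSK219 livers (76887 to 88200 CPM), with Alb at 31636 to 44375, 54089 to 74029 and 51442 to 61769 CPM. By gene, both WT livers were below all TRPV4-KO livers for 1 of the 6 hepatocyte markers and below all GSK219 livers for 2, so the sums mainly follow Alb. The part of any of these cells in the members' levels was not tested, and in bulk tissue fewer cells of a type and less RNA per cell cannot be told apart.

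**Figure D4:**
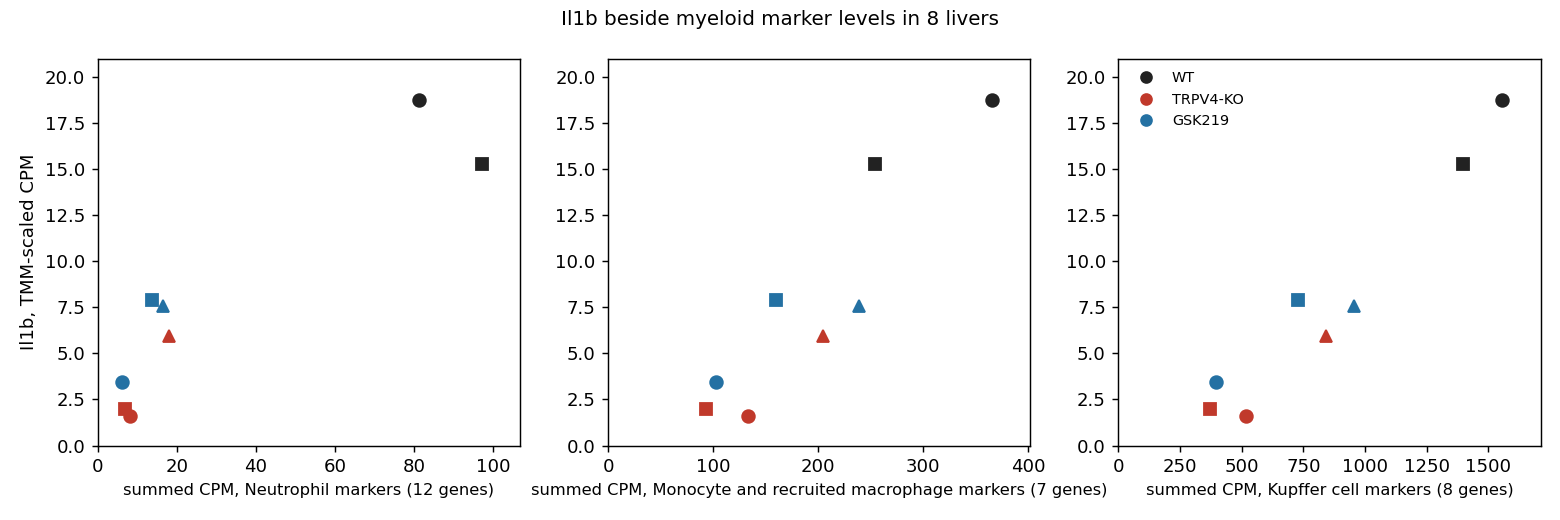
Il1b in each liver (vertical axis, TMM-scaled CPM) against the summed CPM of neutrophil, monocyte and recruited macrophage, and Kupffer cell markers, with shapes for replicates 1 (circle), 2 (square) and 3 (triangle). The 2 WT livers are at the upper right of each panel, with 81.3 to 97.2 CPM of neutrophil markers, and the 6 others are below 20 CPM there.

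The genes most like Il1b over the 8 livers, by Pearson correlation of log2(CPM + 1), were Man1c1 (r = 0.991), Lgals3 (0.990), Slc15a3 (0.989), Akna (0.987) and Tmem206 (0.986). Lgals3 encodes galectin-3, which macrophages express strongly, and Slc15a3 a lysosomal transporter of peptides. Among members, Nlrp3 (r = 0.943) and Il1a (0.925) were closest to Il1b, Il18 had r = 0.308 and Il1rap r = -0.746. Over the 6 livers other than WT, Nlrp3 (0.889) and Il1a (0.855) kept high values, while that of Il1r1 went from 0.509 to -0.158. The genes most like Il1rn were Neurl1b (0.986), Ripor3 (0.981), Procr (0.981), Cdc14a (0.979) and Sema4b (0.978), and the member closest to it was Il18bp (0.943). These points share libraries and group differences, so the values describe likeness only.

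Most inflammasome and pyroptosis genes beyond Nlrp3 leaned the same way as Il1b. Of 23 listed genes 22 were tested and edgeR called 0 in either comparison with WT, while DESeq2 called 3 against TRPV4-KO (Aim2, Nlrp1b and P2rx7) and 0 against GSK219, beside 3.28% and 0.491% of all genes. Of the list, 12 (against TRPV4-KO) and 7 (against GSK219) had an unadjusted p under 0.05, all higher in WT, beside 17.1% and 8.22% of all genes. Nlrp1b, a sensor of bacterial proteases and dipeptidyl peptidase inhibition, had 78 and 44 reads in WT, 5, 5 and 12 in TRPV4-KO, and 21, 34 and 37 in GSK219 livers. Its log2 difference between WT and TRPV4-KO was 3.02 ± 0.47 (SE, edgeR adjusted p = 0.0529), and TRPV4-KO was below every GSK219 liver (log2 -2.03 ± 0.45, edgeR adjusted p = 0.324), a difference that DESeq2 called, as it did 0.617% of all genes. Aim2, the sensor of cytosolic DNA, and Pycard, the adaptor ASC, differed between WT and TRPV4-KO by log2 1.80 ± 0.50 and 1.24 ± 0.35 (adjusted p 0.155 and 0.157). Against GSK219 the values were 1.72 ± 0.50 and 1.00 ± 0.35 (adjusted p 0.527 and 0.539), with Casp1 at 0.85 ± 0.30 (0.540). The list's median log2 fold change was 0.91 against TRPV4-KO and 0.86 against GSK219, beside -0.01 and -0.0015 over all genes. The log2 fold change was above 0 for 19 of the 22 genes in each comparison, and not for the others.

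Genes of IL-1 receptor signaling showed no such lean. edgeR called 0 of 19 in either comparison with WT, DESeq2 called Irak3 against TRPV4-KO and 0 against GSK219, the median log2 fold change was -0.10 against TRPV4-KO and -0.03 against GSK219, and 2 genes had an unadjusted p under 0.05 in each, Irak3 and Irak4. For this list and those that follow, the shares of all genes are again 17.1% and 8.22% at an unadjusted p under 0.05 and 3.28% and 0.491% by DESeq2. Irak3, which restrains signaling from the receptor in macrophages, read 7.42 and 4.78 CPM in WT and 1.64 to 3.24 CPM in the other livers (log2 1.38 ± 0.38 and 1.28 ± 0.38 SE, adjusted p 0.153 and 0.532). Of 15 NF-kB target genes 10 were tested, edgeR called 0 and DESeq2 3 against TRPV4-KO (Cxcl1, Nfkbiz and Vcam1) and 2 against GSK219 (Cxcl1 and Vcam1), and 7 had an unadjusted p under 0.05 in each comparison, all higher in WT. Cxcl1, a neutrophil chemoattractant, read 110 and 77.9 CPM in WT, 21.4, 22.5 and 40.5 CPM in TRPV4-KO, and 34.0, 22.6 and 32.2 CPM in GSK219 livers (log2 1.73 ± 0.31 and 1.66 ± 0.31 SE, adjusted p 0.0766 and 0.352). Of the 12 IL-1 family genes beyond the members 5 were tested and edgeR and DESeq2 called 0, with 2 (Il1rl2 and Il1r2) at an unadjusted p under 0.05 in each comparison. Il1r2 had passed the filter on low counts through the WT livers alone, so its place in that count is no support.

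TRPV4-KO and GSK219 livers were not distinguished by any member. edgeR called 0 of 9 members, where 0.0992% of all genes were called, 0 had an unadjusted p under 0.05, and DESeq2 called 0 (0.617% of all genes). The largest difference was that of Il1b, at log2 -0.98 ± 0.52 (SE), lower in TRPV4-KO, with an edgeR adjusted p of 0.886 and overlapping groups. Without TRPV4-KO replicate 3 it was -1.82, with an adjusted p of 0.0791. The signs of Il1rn, Il1r1, Il33, Il18, Il18bp and Il1a turned when single livers were left out, so this comparison does not rank the treatments for them.

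In PSCs, the comparison of Yoda1 with DMSO asks what PIEZO1 activation does to stromal cells. The member with the highest level per length in DMSO was Il1r1 (12.9 CPM per kb), followed by Il1a (5.72), Il1rap (3.78) and Il1rn (1.94), with Il18 (0.735), Il33 (0.729), Il18bp (0.573) and Il1rl1 (0.529) below and overlapping one another. With Yoda1, Il1a came before Il1r1, at 10.3 against 7.78 CPM per kb, with overlapping ranges. Values below are deposited values, read counts divided by a factor for each library, and were tested with limma on log2(value + 1), which understates changes of low genes.

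**Figure D5:**
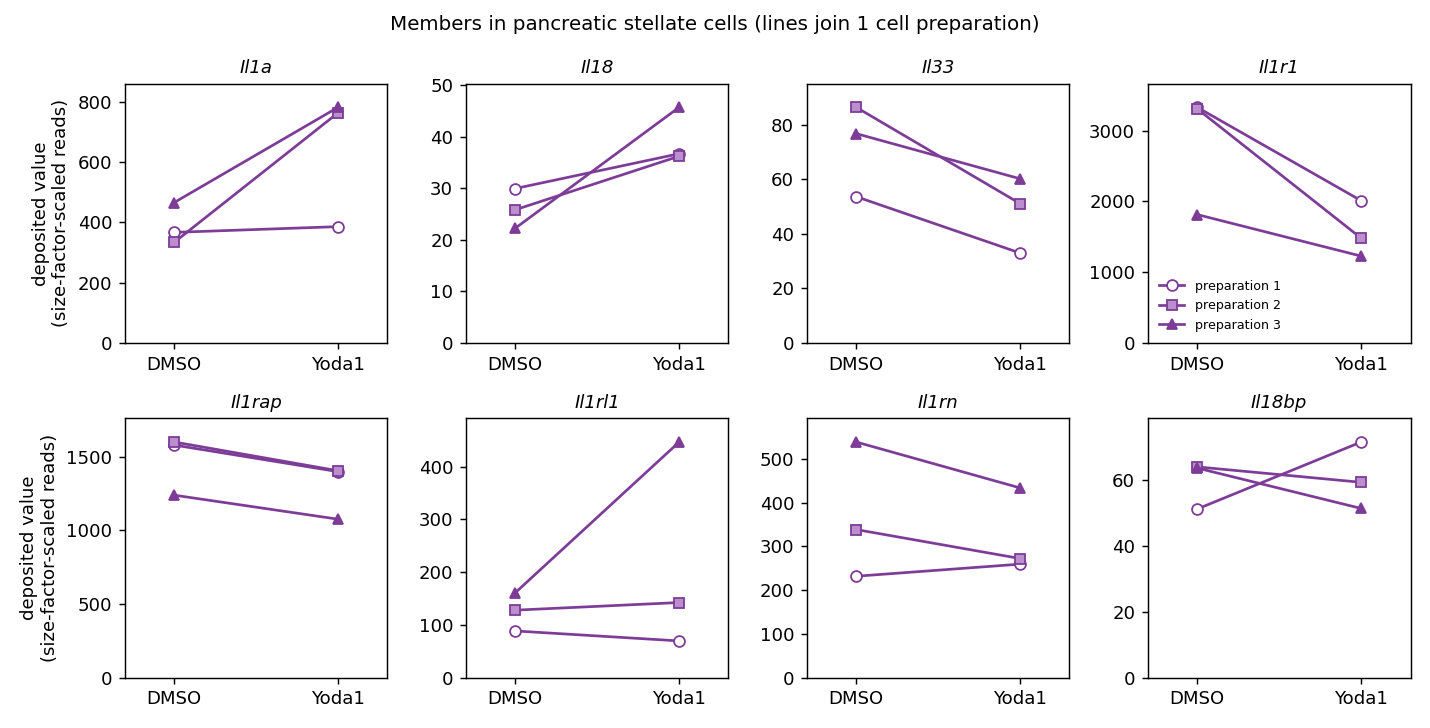
Deposited value of the 8 members found in the PSC table under DMSO and Yoda1, with a line for each of 3 cell preparations and linear axes that differ between panels. Il1r1 is lower with Yoda1 in every preparation (1227 to 2010, against 1815 to 3332 with DMSO), and Il1rl1 is much higher in preparation 3 alone.

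limma called 0 of the 8 members, where 1.56% of all 15145 tested genes were called. At an unadjusted p under 0.05 there were 2 (Il1r1, lower, and Il18, higher), against 22.7% of all genes, and DESeq2 and edgeR on the recovered reads called 0, beside 2.57% and 1.48% of all genes. With the preparation as a block, the adjusted p alone was under 0.05 for 2 members, Il1r1 and Il1rap, as for 17.7% of all genes, but neither reached the fold threshold. In 5 of 8 members (Il1a, Il1r1, Il1rap, Il33 and Il18) all 3 preparations went the same way, which held for 56.6% of genes.

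Il1r1 was 3332, 3311 and 1815 in DMSO and 2010, 1480 and 1227 in Yoda1, in the order of the preparations. It was lower with Yoda1 in every preparation, by 1.66-, 2.24- and 1.48-fold, though DMSO of preparation 3 lay below Yoda1 of preparation 1. The log2 difference was -0.82 ± 0.28 (SE) with a limma adjusted p of 0.150, and -0.82 ± 0.11 with the preparation as a block, with an adjusted p of 0.00964. DESeq2 gave 0.0236, within a range of 0.00964 to 0.154 over the alternatives with all libraries. Summed markers of stellate cells and fibroblasts (10 of 12 in the table) were also lower, at 750676 to 801875 in DMSO and 352861 to 438689 in Yoda1, with Col1a1 alone at 404158 to 463416 and 213908 to 261784. By gene, all Yoda1 libraries were below all DMSO libraries for 7 of the 10 and above them for 2. The share of all genes separated in this way was not counted, so these numbers only describe the markers. The part of these cells in the Il1r1 level was not tested.

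Il1rap was 1580, 1601 and 1240 in DMSO and 1399, 1405 and 1076 in Yoda1, a small step down in each preparation. The log2 difference was -0.19 ± 0.14 (SE, limma adjusted p = 0.475), and -0.19 ± 0.05 with an adjusted p of 0.0494 under the block, or 0.0509 with the same block in edgeR on the recovered reads. The ratio of Il1r1 to Il1rap reads per gene length was 3.77, 3.69 and 2.61 in DMSO and 2.57, 1.88 and 2.04 in Yoda1. All Yoda1 libraries were below all DMSO libraries on this ratio. It was lower with Yoda1 in each of the 3 preparations, and was not tested.

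Il1a was 367, 333 and 465 in DMSO and 386, 764 and 782 in Yoda1. It hardly differed in preparation 1 (1.05-fold) and was 2.29- and 1.68-fold higher in preparations 2 and 3. Yoda1 minus DMSO was log2 0.67 ± 0.29 (SE) with a limma adjusted p of 0.228, or 0.0733 under the block, and without Yoda1 replicate 1 it was 1.01 with 0.0482 (a fit that called 0.852% of all genes), within 0.0482 to 0.497 over the libraries left out in turn. Il18 was 29.9, 25.8 and 22.2 in DMSO and 36.7, 36.2 and 45.7 in Yoda1, from 22 to 57 reads per library. Its log2 difference was 0.59 ± 0.21 (SE, limma adjusted p = 0.164), and 0.59 ± 0.23 with an adjusted p of 0.132 under the block.

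Il33 was 53.6, 86.4 and 76.7 in DMSO and 32.9, 51.0 and 60.1 in Yoda1, lower in each preparation. Its log2 difference was -0.59 ± 0.29 (SE, limma adjusted p = 0.280), and -0.59 ± 0.17 with an adjusted p of 0.0635 under the block. Its receptor gene Il1rl1 was 88.5, 128 and 160 in DMSO and 69.6, 142 and 447 in Yoda1. The Il1rl1 difference, log2 0.43 ± 0.64 (SE), or ± 0.33 under the block, rested on preparation 3 and was -0.29 without Yoda1 replicate 3. Il1rl1 thus had 71 to 557 reads in PSC libraries and 0 to 8 in livers. Il1rn was 232, 339 and 539 in DMSO and 260, 272 and 434 in Yoda1 (log2 -0.15 ± 0.34 SE, or ± 0.12 under the block), and differed more between preparations than between treatments. Il18bp was 51.1, 63.9 and 63.6 in DMSO and 71.5, 59.3 and 51.3 in Yoda1 (log2 0.02 ± 0.19 SE, or ± 0.20 under the block), with overlap.

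The PSC libraries also held reads of leukocyte genes, with Ptprc (CD45) at 18.8 to 37.3 and Csf1r at 244 to 479, and of epithelial genes, with Epcam at 2310 to 5137 and Krt19 at 2882 to 6221. Of the neutrophil markers 2 of 12 were in the table. Which cells in the cultures carried Il1a, Il1rn or Il1rl1 was not tested.

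Around the members in PSCs, limma and edgeR called 0 genes of the 4 further lists, beside 1.56% and 1.48% of all genes. DESeq2 called 1, Ccl2, beside 2.57% of all genes. The counts at an unadjusted p under 0.05 that follow stand beside 22.7% of all genes. None of the 5 tested IL-1 family genes beyond the members had an unadjusted p under 0.05. Naip2, which links bacterial proteins to the NLRC4 inflammasome, was 52.4, 57.2 and 74.7 in DMSO and 89.4, 108 and 168 in Yoda1 (log2 0.94 ± 0.27 SE, adjusted p = 0.103), and 5 of 14 tested inflammasome genes had an unadjusted p under 0.05, all higher with Yoda1. Irak3 was higher in every preparation (97.3, 121 and 133 against 162, 185 and 196, log2 0.63 ± 0.16 SE, adjusted p = 0.0785). Of 15 NF-kB targets 2 had an unadjusted p under 0.05, both lower, and the chemokine Ccl2 was 1589, 2425 and 2190 in DMSO and 567, 695 and 1453 in Yoda1 (log2 -1.29 ± 0.35 SE, adjusted p = 0.0926). Cxcl5 had the largest difference of that list (log2 1.99 ± 0.87 SE, adjusted p = 0.238), at 42.4, 68.4 and 17.2 in DMSO and 46.1, 151 and 472 in Yoda1, most of it in preparation 3. All listed signaling genes (19 of 19) were tested, with 3 higher and 3 lower at an unadjusted p under 0.05.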

How the data were processed

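RNA-Seq libraries of 8 livers and 6 PSC cultures were used. Per the labels, the authors trimmed reads with Trim Galore and aligned them with HISAT2 2.0.5, and the counting tool, its strand setting and the build are not given in the sources used here. The liver gene coordinates are those of GENCODE M21 on GRCm38. The deposited liver file holds raw read counts per gene, of which 7 columns that match no described sample were not used. The deposited PSC signal is a count divided by 1 factor per library: 100% of 98886 values were whole multiples of it within 0.01 reads. The authors' own fold changes and p-values in that file were not used.

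Liver counts were TMM-scaled and tested with edgeR 4.0.16 (quasi-likelihood, filterByExpr with a minimum count of 10, all 8 livers in 1 fit), with a biological coefficient of variation of 28.3%. PSC values (at least 10 in at least 3 libraries) were tested with limma 3.58.1 on log2(value + 1) in R 4.3.3, and DESeq2 1.42.0 was an alternative. Calls needed an adjusted p under 0.05 (Benjamini-Hochberg over all genes tested) and a log2 fold change over 1. Scripts were tested on simulated data. Same-numbered PSC libraries come from the same cell preparation (correlations of deviations 0.431, 0.262 and 0.528), so blocked values are given for the members. Genes of the further lists are given without the block. The labels do not say that liver numbers pair mice. p-values set a group difference against the spread estimated between these libraries. In PSCs without the block, that spread includes the differences between preparations.

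The 10 members, the gene lists and the markers were chosen with earlier results of these data known. Named genes are all members and, from each list and comparison, every called gene, or the 3 with the smallest p where none was called, of which the text gives those needed to describe the list. Alternatives were the normalization, filters, pseudocounts of 0.1 and 10, the test, a replicate block, a term for Xist or Y-linked reads, the groups in the fit and leaving out each library.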

Additional observations from a re-analysis of the deposited data

How the results depend on the processing

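No member was called in the comparisons reported, under edgeR in livers or limma in PSCs. In WT against TRPV4-KO, 1 member (Il1b) was called with DESeq2, with a term for Xist or Y-linked reads, and with the replicate block (adjusted p = 0.0325), and 0 to 4 with 1 liver left out, 4 without TRPV4-KO replicate 3 (Il1b, Il18bp, Il33 and Nlrp3). In Yoda1 against DMSO, 0 to 1 member was called with 1 library left out (Il1a, without Yoda1 replicate 1). The other alternatives called no member. Whether liver numbers pair mice is not known from the labels. Deviations of same-numbered livers correlated from -0.536 to 0.612, which does not decide it.

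Genes called over the whole table moved more. In WT against TRPV4-KO there were 40, with 495 by DESeq2, 140 with no filter, 429 with the replicate block, 20 with only the compared groups, 325 with the term for Xist or Y-linked reads and 3 to 722 with 1 liver left out (722 without TRPV4-KO replicate 3). In WT against GSK219 there were 0, with 74 by DESeq2, 8 with no filter, 9 with the block, 2 with only the compared groups, 4 with the Xist or Y-linked term and 0 to 2 with 1 liver left out. In TRPV4-KO against GSK219 there were 15, with 93 by DESeq2, 38 with no filter, 34 with that term and 8 to 79 with 1 liver left out. In Yoda1 against DMSO there were 236, with 449 with the block, 374 by DESeq2, 719 with no fold threshold, 469 by edgeR with the block (an alternative chosen after seeing the data) and 27 to 280 with 1 library left out. The causes were not tested.

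Some log2 differences changed sign. Il18 in WT against TRPV4-KO (-0.05) was 0.035 with the block and -0.26 to 0.20 with 1 liver left out. In TRPV4-KO against GSK219, Il1rn (0.01) was -0.0104 by DESeq2, -0.0035 with RLE, -0.0036 with no filter, -0.55 with the block, -0.0113 with only the compared groups and -0.44 with the Xist or Y-linked term, and Il18bp (0.01) was -0.11 with the block, -0.0066 with only the compared groups and -0.0764 with that term. With 1 liver left out that comparison gave -0.48 to 0.0012 for Il1a, -1.40 to 0.52 for Il1rn, -0.54 to 0.22 for Il1r1, -0.31 to 0.38 for Il33, -0.0034 to 0.47 for Il18 and -0.53 to 0.32 for Il18bp. In PSCs the ranges with 1 library left out were -0.45 to 0.16 for Il1rn, -0.29 to 1.04 for Il1rl1 and -0.10 to 0.13 for Il18bp. Il1rl1 had 0 to 8 reads per liver and was not tested there.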
